A study of Mus musculus with 2 samples.

Results

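The Snail, Twist, Zeb and Ovol genes are 9 genes for transcription factors that set how epithelial or mesenchymal a cell is. Rows of the deposited tables were taken where the gene symbol was Snai1, Snai2, Snai3, Twist1, Twist2, Zeb1, Zeb2, Ovol1 or Ovol2. All 9 were found, among 22558 genes in all. RNA sequencing had been done on cells sorted by flow cytometry, straight after dissociation and without treatment, from tumours of the breast in mice of the inbred FVB strain. Of the libraries, 1 was of tumour-initiating cells (TIC) and the other of non-tumorigenic cells (NTC), with 1 library in each group. The mouse model, the surface markers of the sort, the age of the animals and how many were pooled are not in the sources used here.

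With 1 library in each group there is no replicate check, no SD and no p-value, and every difference given is between these 2 libraries. Levels are in FPKM, fragments per kilobase of transcript and per 1e6 mapped fragments. The low values of short receptor genes place the depth at about 21.0 fragments in TIC and 21.6 in NTC for each kb of transcript at 1 FPKM, a rough estimate that covers counting only. Ratios are log2((TIC + 1)/(NTC + 1)), which understates the difference of low genes. A gene is called measured where the mean of its 2 values was 1 FPKM or more, which held for 12004 genes. In bulk RNA, fewer cells that make a transcript and less of it per cell cannot be told apart.

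Snail and Zeb proteins are zinc finger repressors that bind E-boxes, short DNA motifs, in genes of cell adhesion, among them that of E-cadherin. Twist proteins bind E-boxes of another make as pairs with E proteins, through a basic helix-loop-helix domain. Ovol proteins are zinc finger repressors that hold the epithelial state, and Zeb1 is among their known targets. In the normal mammary gland, Snai2 is known as a factor of the basal layer.

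The set was made up of different genes in the 2 libraries. Snai2 (Slug) stood at 90.9 FPKM in TIC versus 0.382 FPKM in NTC, while Ovol1 and Ovol2 were the highest members in NTC. The levels of the 9 genes summed to 95.4 FPKM in TIC and 6.90 FPKM in NTC. Snai2 gave 95.3% of that sum in TIC and 5.54% in NTC, whereas the Ovol genes gave 2.64% in TIC and 85.1% in NTC. Without Snai2 the other 8 summed to 4.50 FPKM in TIC and 6.51 FPKM in NTC. Of the 9 members 4 had the higher value in TIC (Snai2, Snai3, Twist1 and Twist2), 4 had the lower value in TIC (Snai1, Zeb1, Ovol1 and Ovol2), and Zeb2 was listed at 0 in both libraries.

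**Figure D1:**
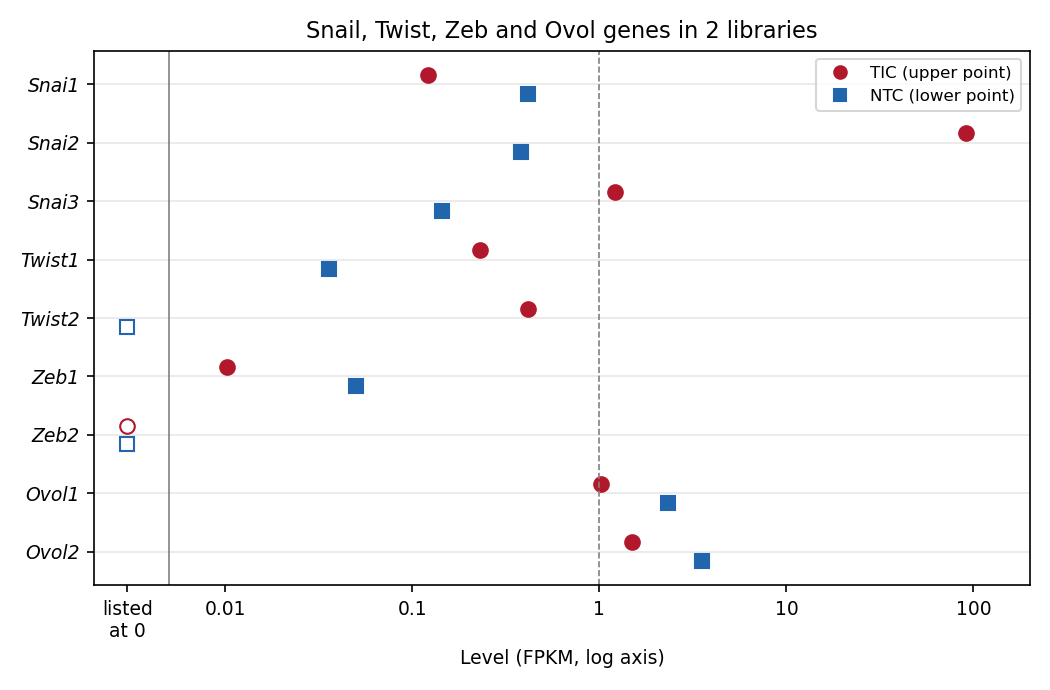
Level of each of the 9 genes in FPKM on a log axis, with TIC as the upper point and NTC as the lower point of each row, open points for values listed at 0 and a dashed line at 1 FPKM. Snai2 in TIC, at 90.9 FPKM, is the only point above 10 FPKM, and the 2 Ovol genes are the only ones above 1 FPKM in NTC.

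Only 3 members were measured, namely Snai2, Ovol1 and Ovol2, and the other 6 had a mean below 1 FPKM. Snai2 was the only 1 of the 9 that was 2-fold or more higher in TIC, a difference that 14.6% of measured genes showed. None of the 9 was 2-fold or more lower in TIC, against 13.8% of measured genes. With 3 measured members these counts say little about the family as a whole.

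Among the Snail genes, Snai2 had a log2 ratio of 6.06, the 43rd highest of the 12004 measured genes. Its FPKM as listed were 238.0 times as high in TIC as in NTC. At 90.9 FPKM in TIC it ranked 574 among all 22558 genes, and at 0.382 FPKM in NTC it ranked 12363. By the length of its transcript of 2021 bases, these levels correspond to about 3856 reads in TIC and 17 in NTC, so the NTC value sets most of the counting error of the ratio. The gene lies on chromosome 16, 14705952 to 14709475 (build mm9), and no other listed gene overlaps it. Its ratio was between 4.16 and 7.89 when the pseudocount was changed or left out, and it stayed past 2-fold in each case.

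Snai1, which encodes Snail itself, had 0.121 FPKM in TIC compared with 0.418 FPKM in NTC, the reverse order of Snai2. These levels amount to about 4 reads in TIC and 15 in NTC. Its log2 ratio was -0.34. In NTC, Snai1 and Snai2 thus lay next to each other in level, while in TIC they stood at opposite ends of the Snail genes.

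Snai3, the remaining Snail gene, had 1.21 FPKM in TIC versus 0.144 FPKM in NTC. This corresponds to about 41 reads in TIC and 5 in NTC. As listed, the TIC value was 8.41 times the NTC value. With 1 FPKM added, its log2 ratio of 0.95 lay just inside the 2-fold bound. The ratio was 2.43 with 0.1 FPKM added and 0.27 with 5 FPKM added. It was 1.01 when both libraries were scaled to the same sum of FPKM. Its mean was below 1 FPKM under that scaling as well, so it is not counted among measured genes.

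**Figure D2:**
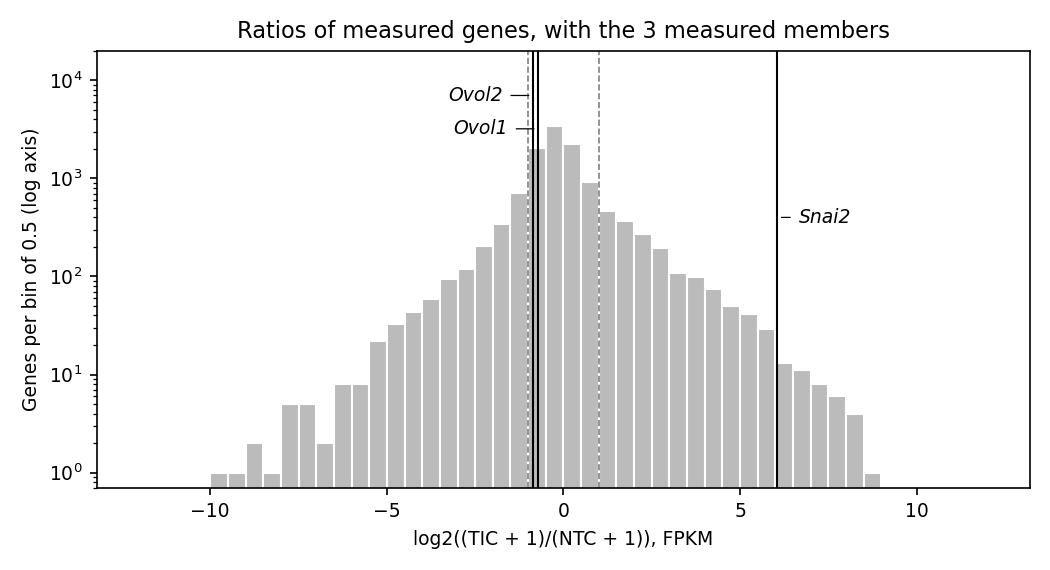
Number of measured genes, on a log axis, in bins of 0.5 of the log2 ratio of TIC to NTC, with black lines at the 3 measured members and dashed lines at 2-fold. Snai2, at 6.06, lies in the thin right tail, and Ovol1 at -0.72 and Ovol2 at -0.86 lie inside the 2-fold bounds.

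The Twist genes were low in both libraries, with the higher values in TIC. Twist1 had 0.229 FPKM in TIC compared with 0.0359 FPKM in NTC, or about 8 reads in TIC and 1 in NTC. Twist2 had 0.416 FPKM in TIC, about 22 reads, and a listed 0 in NTC. A listed 0 is not read as absence, because Ndufs5, a subunit of the respiratory chain that cells in general use, is also listed at 0 in both libraries. Together the Twist genes made up 0.676% of the summed level of the 9 genes in TIC and 0.520% in NTC.

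The Zeb genes were the lowest of the set in TIC, while in NTC Zeb1 lay above both Twist genes. Zeb1 had 0.0103 FPKM in TIC versus 0.0500 FPKM in NTC, or about 1 read in TIC and 6 in NTC, too few for a direction. Its log2 ratio was -0.06, and it turned to 0.11 with ratios centred on the median measured gene. Zeb2 was listed at 0 in both libraries. Zeb1 overlaps the listed gene Gm10125, and Zeb2 overlaps Gm13476 and Mir5129, and whether reads were counted by strand is not in the sources used here.

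The Ovol genes shared the opposite order to Snai2, with lower values in TIC. Ovol1 had 1.02 FPKM in TIC compared with 2.32 FPKM in NTC, or about 64 reads in TIC and 149 in NTC. Ovol2 had 1.50 FPKM in TIC versus 3.55 FPKM in NTC, or about 49 reads in TIC and 119 in NTC. As listed, the NTC value was 2.27 times the TIC value for Ovol1 and 2.37 times for Ovol2. On the scale with 1 FPKM added, the log2 ratios were -0.72 and -0.86, inside the 2-fold bound, and with 0.1 FPKM added they were -1.11 and -1.19, past it. Of the 12004 measured genes, the ratio of Ovol2 was the 2056th lowest and that of Ovol1 the 2600th lowest. The ratio of each was below 0 under the 3 alternative scalings of the libraries. The files list Ovol2 under several gene identifiers, so its value may combine transcripts. Ovol1 lies on chromosome 19, 5549137 to 5560575, and Ovol2 on chromosome 2, 144130912 to 144157816 (build mm9).

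Within each library the members fell in a different order. In TIC, from high to low, it ran Snai2, Ovol2, Snai3, Ovol1, Twist2, Twist1, Snai1, Zeb1 and Zeb2. In NTC it ran Ovol2, Ovol1, Snai1, Snai2, Snai3, Zeb1 and Twist1, followed by Twist2 and Zeb2 at 0. Without replicates, neighbours such as Ovol2, Snai3 and Ovol1 in TIC (1.50, 1.21 and 1.02 FPKM) or Snai1 and Snai2 in NTC (0.418 and 0.382 FPKM) cannot be placed in order with any confidence.

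The genes whose pair of levels lay nearest to that of Snai2, by distance in log2(FPKM + 1) over the 2 libraries, were Sema6d, Matn2, Myh11, Nrg1 and Osr1, at distances of 0.15 to 0.23. Myh11, the heavy chain of smooth muscle myosin, had 95.7 FPKM in TIC compared with 0.200 FPKM in NTC. Nearest to Ovol1 were Krt16, Lmln, Rasl12, Fam54a and 6430548M08Rik. Nearest to Ovol2 were Zbtb42, Mblac1, Hist1h4m, Hexdc and Cdc6. Over 2 libraries, nearness says only that the levels are alike.

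The libraries also differed in their lineage markers. Basal markers differed in the direction of Snai2, and luminal markers mostly in the reverse direction. All 10 basal markers were 2-fold or more higher in TIC, and they summed to 3893 FPKM in TIC and 42.1 FPKM in NTC. Acta2, smooth muscle actin, had 2101 FPKM in TIC versus 6.13 FPKM in NTC. Trp63, the p63 factor of basal cells, had 450.6 FPKM in TIC compared with 2.51 FPKM in NTC. The keratin Krt5 had 782.8 FPKM in TIC versus 4.13 FPKM in NTC. Of 12 luminal markers, 11 were 2-fold or more lower in TIC, and the list summed to 107.2 FPKM in TIC and 5497 FPKM in NTC. The casein Csn3 had 48.9 FPKM in TIC compared with 2277 FPKM in NTC. The part of these markers in the Snai2 and Ovol differences was not tested.

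Fibroblasts are known to express Snail, Twist and Zeb genes, so markers of other cells were read as well. The 10 fibroblast markers summed to 179.5 FPKM in TIC and 2.49 FPKM in NTC, and the 6 that were measured were 2-fold or more higher in TIC. Dcn, the proteoglycan decorin, held most of that sum, with 151.8 FPKM in TIC versus 1.51 FPKM in NTC. The other measured markers had 0 to 0.513 FPKM in NTC and so passed the filter only through TIC. Their direction was thus nearly fixed by the filter. With no filter on low values, 6 of the 10 were 2-fold or more higher in TIC and 0 were 2-fold or more lower. The collagen gene Col1a2 had 9.56 FPKM in TIC compared with 0.0119 FPKM in NTC, and Thy1, a surface protein of fibroblasts among other cells, had 3.06 FPKM in TIC and a listed 0 in NTC. The other collagen genes Col1a1 (0.459 FPKM in TIC compared with 0.339 FPKM in NTC) and Col3a1 (0.221 FPKM in TIC, listed at 0 in NTC) were low, and Fap was listed at 0 in both libraries. Lum had 0.573 FPKM in TIC and a listed 0 in NTC. The part of these cells in the Twist values was not tested.

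None of the 8 endothelial markers was measured, and they summed to 3.22 FPKM in TIC and 0.351 FPKM in NTC. Kdr, a receptor for vascular growth factor, was the highest, with 1.61 FPKM in TIC and a listed 0 in NTC. The 11 macrophage markers found summed to 2.58 FPKM in TIC and 2.29 FPKM in NTC. Lyz2, the highest in TIC, had 1.56 FPKM in TIC versus 0.727 FPKM in NTC. Cd68, the highest in NTC, had 0.828 FPKM in TIC compared with 1.38 FPKM in NTC. Low values were seen for Mrc1 (0.143 FPKM in TIC, 0.0557 FPKM in NTC) and Itgam (0.0538 FPKM in TIC, 0.0115 FPKM in NTC). For Csf1r the only signal was 0.108 FPKM, in the NTC library. Emr1, Ptprc, Fcgr1, C1qa, C1qb and C1qc were listed at 0 in both. The 10 lymphocyte markers summed to 0.913 FPKM in TIC and 0.251 FPKM in NTC, with Cd79b the highest at 0.572 FPKM in TIC compared with 0.251 FPKM in NTC and 7 listed at 0 in both. Of 8 pericyte markers 4 were measured. Of these, 3 were 2-fold or more higher in TIC. They were Mcam (30.7 FPKM in TIC, 5.86 FPKM in NTC), Cspg4 (8.51 FPKM in TIC, 0.0332 FPKM in NTC) and Pdgfrb (2.44 FPKM in TIC, 0.0701 FPKM in NTC). Cspg4 and Pdgfrb passed the filter only through TIC. The remaining 1, Notch3, was 2-fold or more lower, with 0.181 FPKM in TIC versus 38.0 FPKM in NTC. Abcc9 and Kcnj8, not measured, were also past 2-fold lower, each listed at 0 in TIC, with 1.04 and 1.16 FPKM in NTC. That list summed to 41.9 FPKM in TIC and 46.2 FPKM in NTC, with Rgs5 listed at 0 in both.

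Genes known as repressed by Snail, Zeb or Twist factors, or lost as cells become mesenchymal, were mostly lower in TIC. Of 34 such epithelial genes, all of them measured, 24 were 2-fold or more lower in TIC, 3 were 2-fold or more higher and 7 within 2-fold. Their median log2 ratio was -3.05, beside -0.16 over all measured genes. With both libraries scaled to equal sums of FPKM, 21 were 2-fold or more lower, and with equal upper quartiles 22. E-cadherin (Cdh1), the classical target, had 1 of the smaller differences, with 131.4 FPKM in TIC compared with 297.8 FPKM in NTC. Its log2 ratio of -1.17 was past 2-fold but close to the bound, so the call may depend on the scaling. The adhesion molecule Epcam had 153.8 FPKM in TIC versus 589.0 FPKM in NTC. Both genes were thus abundant in the library with high Snai2.

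The 4 lowest log2 ratios of the list were those of the keratin genes Krt19 (-8.37) and Krt18 (-6.79) and the claudin genes Cldn3 (-7.87) and Cldn7 (-5.87). Other genes of tight junctions lay closer, with ratios of -1.08 for Tjp1, -0.16 for Inadl and -0.03 for F11r. Krt8, the partner of Krt18, had 11.6 FPKM in TIC compared with 314.2 FPKM in NTC. Krt8, Krt18 and Krt19 are also luminal markers. Higher in TIC were P-cadherin (Cdh3), at 208.8 FPKM in TIC versus 0.665 FPKM in NTC, and the desmosome gene Dsp, at 195.0 FPKM in TIC compared with 19.7 FPKM in NTC. Dsp is listed under several gene identifiers. The third gene of the list that was 2-fold or more higher in TIC was Prom2, at 87.3 FPKM in TIC versus 13.7 FPKM in NTC.

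**Figure D3:**
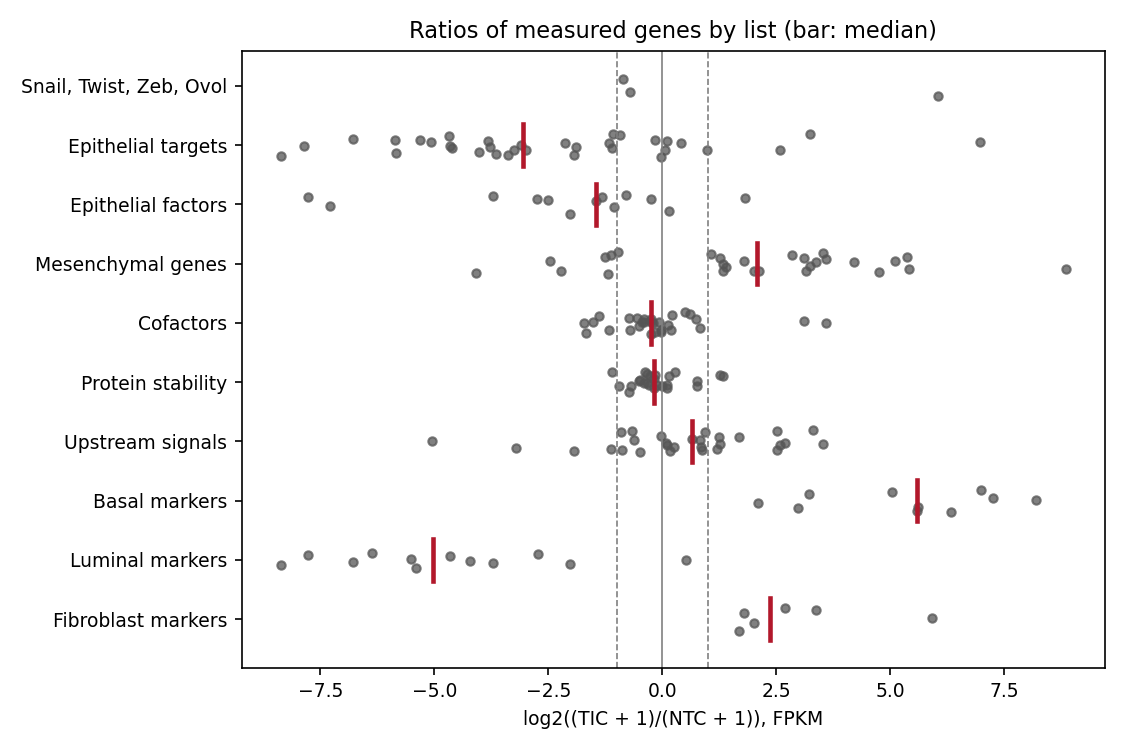
Log2 ratio of TIC to NTC of every measured gene (points) in the 9 genes and in lists of their pathway and of cell type markers, with the median of each other list as a red bar and dashed lines at 2-fold. Epithelial targets lie mostly left, with a median of -3.05, and mesenchymal genes mostly right, with a median of 2.07, while the medians of cofactors (-0.24) and genes of protein stability (-0.18) lie near that of all measured genes (-0.16).

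Promoters were read for the E-box core CAGGTG, the known core of Snail and Zeb sites, on either strand (CACCTG on the other). Sequences came from RefSeq, build GRCm38.p6, which held promoters for 23 of the 34 epithelial genes and for 5 of the 9 members (Snai1, Twist1, Twist2, Zeb2 and Ovol2). In the 250 bases before the start, 14 of these 23 genes (60.9%) held at least 1 such core in at least 1 promoter, against 17.2% of all 32851 promoters and 18.4% of 8463 measured genes. The list was written from known targets, so this share describes the list and is no evidence of binding in these cells. Where a gene had more than 1 promoter, the one with the most cores was taken, or the first by position where counts were equal. The sequences below show where the cores lie, and the genes shown were chosen after their values were seen. Each gives the 250 bases before the start, 5′ to 3′ on the strand of the gene, with the E-box cores in capitals.
Cldn4: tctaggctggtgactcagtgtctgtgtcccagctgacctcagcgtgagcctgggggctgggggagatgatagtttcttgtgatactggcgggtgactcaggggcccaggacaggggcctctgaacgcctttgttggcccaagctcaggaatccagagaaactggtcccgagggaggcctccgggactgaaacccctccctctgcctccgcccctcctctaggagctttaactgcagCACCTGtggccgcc
Cldn7: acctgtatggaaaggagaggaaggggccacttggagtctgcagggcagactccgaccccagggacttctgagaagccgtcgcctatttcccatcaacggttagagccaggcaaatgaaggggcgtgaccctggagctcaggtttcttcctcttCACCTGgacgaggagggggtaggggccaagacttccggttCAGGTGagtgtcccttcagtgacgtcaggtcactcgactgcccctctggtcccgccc
Crb3: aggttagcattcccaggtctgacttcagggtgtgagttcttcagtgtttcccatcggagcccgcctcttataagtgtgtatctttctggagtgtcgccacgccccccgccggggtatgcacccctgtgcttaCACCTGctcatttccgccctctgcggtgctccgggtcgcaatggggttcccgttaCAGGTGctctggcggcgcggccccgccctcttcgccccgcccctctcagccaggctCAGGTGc
Epcam: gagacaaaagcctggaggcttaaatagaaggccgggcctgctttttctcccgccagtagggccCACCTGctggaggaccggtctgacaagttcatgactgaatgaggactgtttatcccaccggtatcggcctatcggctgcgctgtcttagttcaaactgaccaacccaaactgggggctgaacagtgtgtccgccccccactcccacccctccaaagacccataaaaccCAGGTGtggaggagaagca
Muc1: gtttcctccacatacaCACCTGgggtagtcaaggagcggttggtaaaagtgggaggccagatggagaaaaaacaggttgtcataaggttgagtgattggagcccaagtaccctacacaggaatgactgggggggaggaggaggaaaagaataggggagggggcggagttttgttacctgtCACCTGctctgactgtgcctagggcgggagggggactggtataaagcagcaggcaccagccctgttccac
Snai1: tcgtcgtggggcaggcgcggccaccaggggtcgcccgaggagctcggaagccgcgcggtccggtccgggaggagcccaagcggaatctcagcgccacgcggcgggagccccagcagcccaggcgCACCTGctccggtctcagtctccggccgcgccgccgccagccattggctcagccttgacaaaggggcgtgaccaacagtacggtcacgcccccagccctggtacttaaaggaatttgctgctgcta

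The claudin gene Cldn4 (chr5:134946935-134947184, minus strand) held 1 core, which began 14 bases before the start. Its level was 0.181 FPKM in TIC compared with 66.3 FPKM in NTC. In Cldn7 (chr11:69965171-69965420, plus strand), the cores began 97 and 57 bases before the start. Another Cldn7 promoter, not shown, held no core. Cldn7 had 0.590 FPKM in TIC versus 92.0 FPKM in NTC. Both genes make claudins, the membrane proteins of tight junctions, and both were among the 5 lowest ratios of the list.

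Crb3 (chr17:57061951-57062200, plus strand), a gene of apical polarity, held 3 cores, which began 118, 63 and 7 bases before the start. It had 0.424 FPKM in TIC compared with 11.3 FPKM in NTC. Crb3 was also the only 1 of the 23 genes with CCGTTA, the known core of Ovol sites, against 2.18% of all promoters. That core began 69 bases before the start and directly adjoined the middle E-box, with no base between them.

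Epcam (chr17:87635729-87635978, plus strand) held cores that began 187 and 19 bases before the start. The mucin gene Muc1 (chr3:89228806-89229055, plus strand) held cores that began 234 and 70 bases before the start, and had 0.0246 FPKM in TIC versus 39.9 FPKM in NTC. Of the 5 members with a promoter, Snai1 (chr2:167537945-167538194, plus strand) was the only 1 with the E-box core, which began 126 bases before the start. In human cells, Snail protein is known to repress its own gene through an E-box. None of these 5 held CCGTTA.

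Levels were then set beside the E-box count. Of the 14 epithelial genes with a core, 11 were 2-fold or more lower in TIC and 0 were 2-fold or more higher. Of the 9 without a core, 5 were 2-fold or more lower and 2 were 2-fold or more higher. Cldn3, Cgn, Marveld2 and Cldn1 had log2 ratios of -3.77 or lower with no core in this window, and Ap1m2, with 4 cores, had a ratio of -0.93. Over all measured genes the same split gave 19.5% 2-fold or more lower and 14.8% higher among 1556 genes with a core. Among 6907 genes without one, the shares were 12.0% lower and 13.8% higher. The medians were -0.23 with a core and -0.15 without. In the window that runs on to 50 bases after the start, 17 of the 23 epithelial genes had a core, of which 13 were 2-fold or more lower and 1 was 2-fold or more higher, and 6 had none, of which 3 were lower and 1 was higher. Cldn3, Marveld2 and Dsp have a core in that added stretch.

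**Figure D4:**
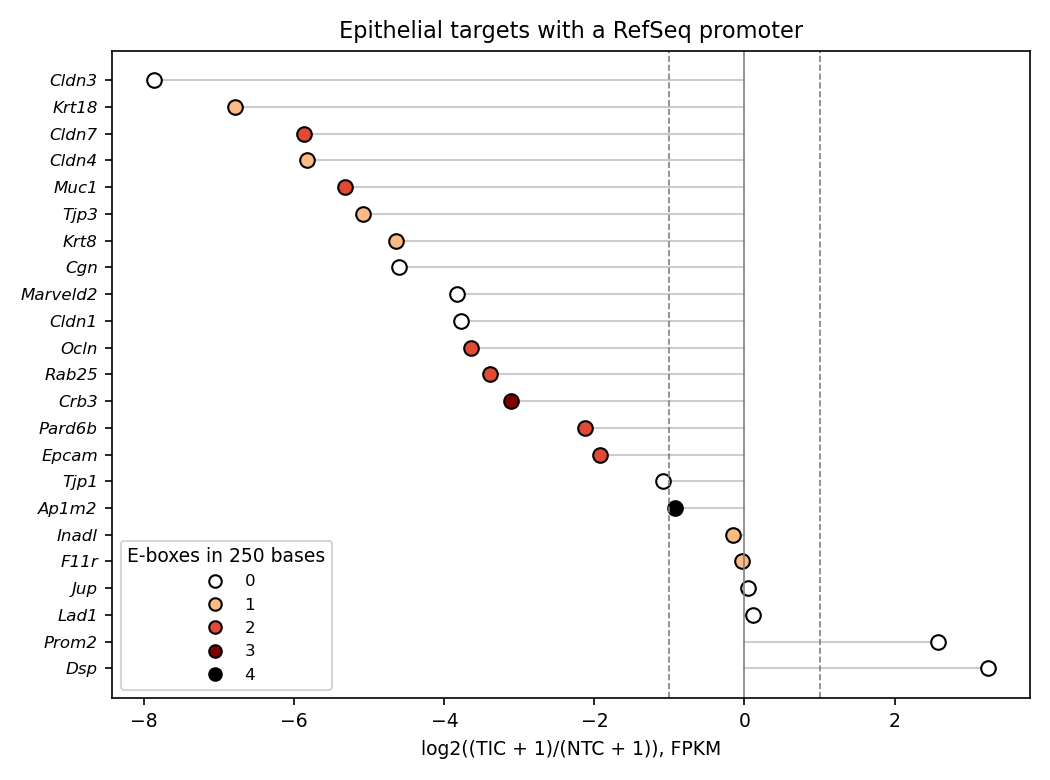
Log2 ratio of TIC to NTC of the 23 epithelial genes with a RefSeq promoter, ordered by ratio and coloured by the largest number of E-box cores in the 250 bases before a start, with dashed lines at 2-fold. Genes with cores reach from Krt18 at -6.79 to F11r at -0.03, and both genes past 2-fold on the right, Prom2 and Dsp, have none.

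Mesenchymal genes ran mostly the other way. Of 36 listed, 28 were measured, of which 21 were 2-fold or more higher in TIC and 6 were 2-fold or more lower, with a median log2 ratio of 2.07. Some of the 21, such as Mmp2, Fbn1 and Col5a2, were below 1 FPKM in NTC and so passed the filter only through TIC. With no filter on low values the counts were also 21 and 6. Sparc, a matrix protein, had a ratio of 8.85, the protease Mmp2 5.42, fibrillin (Fbn1) 5.37 and the collagen Col5a2 5.12. N-cadherin (Cdh2) had 30.8 FPKM in TIC compared with 0.170 FPKM in NTC, and fibronectin (Fn1) had 12.1 FPKM in TIC versus 0.0849 FPKM in NTC. Vimentin (Vim) differed less, with 56.9 FPKM in TIC compared with 21.8 FPKM in NTC. The Wnt ligand Wnt5b (2.31 FPKM in TIC versus 55.2 FPKM in NTC) and the forkhead factor Foxc1 (4.47 FPKM in TIC compared with 29.0 FPKM in NTC) were lower in TIC. Of these genes, 5 are also in the fibroblast list.

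Other factors of the epithelial state were mostly lower in TIC, the direction of the Ovol genes, but not all of them. Of 13 measured, 9 were 2-fold or more lower in TIC and 1 was 2-fold or more higher, with a median of -1.45. Elf5, Foxa1 and Gata3, all among the 9 lower ones, are also luminal markers. Elf5, a factor of the secretory lineage, had a log2 ratio of -7.76, and the related Ehf -7.28, while Foxa1, a luminal factor, had -3.71. Grhl1 had 7.21 FPKM in TIC versus 54.1 FPKM in NTC. Grhl2, a Grainyhead factor known to repress ZEB1 in human breast cells, had 36.1 FPKM in TIC compared with 43.2 FPKM in NTC, within 2-fold. The splicing factors Esrp1 (45.6 FPKM in TIC versus 114.7 FPKM in NTC) and Esrp2 (25.5 FPKM in TIC compared with 71.7 FPKM in NTC) were lower in TIC yet well above the level of either Ovol gene. Klf4, a Kruppel-like factor, was higher in TIC (79.7 FPKM in TIC versus 22.0 FPKM in NTC). Grhl3 had 2.13 FPKM in TIC versus 1.82 FPKM in NTC.

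Snail, Zeb and Twist factors are known to act through corepressors and other partner proteins. Of 29 cofactor genes, all measured, 22 (75.9%) were within 2-fold, beside 8597 (71.6%) of the 12004 measured genes. Of the others, 5 were 2-fold or more lower in TIC and 2 were 2-fold or more higher. The median of the 29 was -0.24. The corepressor Ctbp1 had 39.2 FPKM in TIC versus 39.6 FPKM in NTC, and Ctbp2 had 59.5 FPKM in TIC compared with 38.4 FPKM in NTC. The lowest ratios were those of the acetyltransferase Kat2b (-1.71), the Polycomb gene Ring1 (-1.66), the methyltransferase Setd8 (-1.53) and Mta3 (-1.39), a subunit of a complex known to repress Snail in human breast cancer cells.

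Among the E proteins, which pair with Twist, only Tcf4 was past 2-fold. Tcf4 had 125.4 FPKM in TIC versus 9.51 FPKM in NTC, a log2 ratio of 3.59. Tcf3 had 49.3 FPKM in TIC compared with 43.3 FPKM in NTC, and Tcf12 had 38.8 FPKM in TIC versus 43.0 FPKM in NTC. Jub, an Ajuba LIM protein known to act as a Snail corepressor, had 36.1 FPKM in TIC compared with 3.26 FPKM in NTC.

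Snail and Twist proteins are known to be marked for breakdown by kinases and ubiquitin ligases. Of 26 genes that act on their stability, 25 were measured, of which 22 (88.0%) were within 2-fold, beside 71.6% of all measured genes, with a median of -0.18. The kinase Gsk3b, which marks Snail for breakdown, had 46.5 FPKM in TIC versus 41.9 FPKM in NTC. Fbxl14, a ubiquitin ligase subunit for Snail proteins, had 8.21 FPKM in TIC compared with 18.7 FPKM in NTC, a log2 ratio of -1.10 that lay inside 2-fold under each of the 3 alternative scalings. The deubiquitinase Usp1, the ligase Siah1b and the signalosome subunit Cops5 followed, with ratios of -0.94, -0.72 and -0.69. Lats2 (14.8 FPKM in TIC versus 5.29 FPKM in NTC) and Prkd1 (9.46 FPKM in TIC compared with 3.36 FPKM in NTC), kinases known to act on Snail, were the 2 that were 2-fold or more higher in TIC.

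Several signalling pathways are known to raise these factors, among them TGF-beta, Notch and Wnt. Of 34 genes 29 were measured, of which 10 (34.5%) were 2-fold or more higher in TIC and 4 (13.8%) were 2-fold or more lower, with a median of 0.66. Over all measured genes the shares were 14.6% higher and 13.8% lower. Of the higher genes, Lef1, Pdgfra and Pdgfrb were below 1 FPKM in NTC and so passed the filter only through TIC. Without that filter, 11 of the 34 genes were 2-fold or more higher and 4 were 2-fold or more lower, and the median was 0.21. Raising the filter to 5 FPKM left 7 higher and 4 lower, again around a median of 0.21. The Notch ligand Jag1 had 26.2 FPKM in TIC versus 1.35 FPKM in NTC, and the ETS factor Ets1 had 68.1 FPKM in TIC compared with 6.01 FPKM in NTC. The growth factor receptor Pdgfra had 8.83 FPKM in TIC versus 0.513 FPKM in NTC. Lef1, a factor of Wnt signalling, had 4.98 FPKM in TIC and a listed 0 in NTC. The 4 lower genes were the receptor Met, with 4.33 FPKM in TIC compared with 48.6 FPKM in NTC, and the Notch receptors Notch3, Notch1 and Notch2. Notch1 had 22.8 FPKM in TIC versus 90.4 FPKM in NTC, and Notch2 had 11.2 FPKM in TIC compared with 25.6 FPKM in NTC. Notch3, given above among the pericyte markers, had a log2 ratio of -5.05. The TGF-beta receptors were within 2-fold, Tgfbr1 at 13.7 FPKM in TIC versus 8.36 FPKM in NTC and Tgfbr2 at 13.2 FPKM in TIC compared with 11.7 FPKM in NTC.

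Precursor genes of the miR-200 family and other miRNAs known to act on Zeb or Snail mRNAs gave almost no signal. Of 13 found, 12 were listed at 0 in both libraries, and Mir34a had 3.42 FPKM in TIC and a listed 0 in NTC. Mature miRNAs are not read by this assay, so these values say nothing of their levels.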

How the data were processed

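Total RNA from 1 TIC and 1 NTC library was amplified from 15 ng and fragmented as cDNA, per the labels' protocols. Amplification and PCR copies make reads non-independent. The authors deposited 1 FPKM value per gene and library. Build mm9, Cuffdiff, Cufflinks, TopHat 1.4.0 and CASAVA 1.8.2 are listed, without roles, per the submitters' processing notes. The locus heading names a human build, but of 20009 symbols shared with RefSeq GRCm38, 99.7% lay on the same mouse chromosome and 4.42% of starts within 1 kb. Loci are therefore given as mm9, with 1 added to each start, since 198 starts were 1 below the RefSeq start and 12 equal to it.

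FPKM are not counts, so no count model or test was used. Depth was estimated in olfactory and vomeronasal receptor genes from low values times locus length. The median of those inside a fixed window was 0.0476 FPKM × kb per read in TIC (23 genes) and 0.0463 in NTC (39 genes). Whole reads, to within 0.15, were seen in TIC for 33 of 40 values of up to 3 reads, and in NTC for 48 of 57. These values include the ones that set the estimate, so the counts are no independent check of it. Reads per member used the longest protein-coding GENCODE M21 transcript and are rough. A gene was called at 2-fold. Named genes were the 9 members, up to 4 per list in the direction of its median and 2 in the other, some fixed genes and, for each other cell type, its highest marker. Others, such as Prom2, Ap1m2, Tjp1, Inadl, F11r, Col1a2, Thy1, Lum, Cspg4, Pdgfrb, Notch1, Notch2, Tcf23 and the genes whose promoters are printed, were named after their values were seen. The members and lists were chosen with earlier results of these data known. Alternatives changed the pseudocount, scaling, filter and promoter window. The calculations, in Python 3.11.15 with pandas 2.3.3, were tested on simulated data. A gene that the rule for named genes takes is not reported here and was left out of its list.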

Additional observations from a re-analysis of the deposited data

How the results depend on the processing

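The main limit is 1 library per group. For that reason no test was made, paired or unpaired. The log2 ratio of Snai2 was 7.56 with a pseudocount of 0.1 FPKM, 4.16 with 5 FPKM and 7.89 with none, the last chosen after seeing the data. The number of members at least 2-fold lower in TIC was 2 (Ovol1 and Ovol2) with 0.1 FPKM and likewise 2 with none. With 5 FPKM the median was -1.83 for epithelial targets and 1.32 for mesenchymal genes, of which 3 were at least 2-fold lower, and 0 genes of protein stability were past 2-fold in either direction. Mesenchymal genes had a median of 3.35 with 0.1 FPKM and 1.34 with no filter on low values. The count of protein stability genes at least 2-fold lower was 0 under equal sums of FPKM, equal upper quartiles and centring on the median gene. Equal sums moved the median of all measured genes to -0.00355. The median of the pericyte list was -1.42 with a mean of at least 5 FPKM, where fewer genes remain, against 1.95 as reported. In the other 147 alternative values for the main results, counts and shares stayed within 1.5 times of those reported, and log2 ratios and medians shifted by less than a factor of 1.5 on the linear scale. Counts of E-boxes in the window to 50 bases after the start, 17 of 23 epithelial genes and 20.2% of promoters, were within 1.5 times. The 6 members that were not measured rest on 0 to 41 estimated reads per library.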

Other observations

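Relatives of these genes outside the set, chosen after the values were seen, were mostly listed at 0. The Scratch genes Scrt1 and Scrt2, zinc finger relatives of the Snail genes known from neurons, were listed at 0 in both libraries. Of 9 helix-loop-helix genes related to Twist, 6 were listed at 0 in both libraries. The other 3 were Scx, Tcf15 and Tcf23. Scx (scleraxis, known from tendon) had 1.30 FPKM in TIC versus 2.29 FPKM in NTC, a level above that of either Twist gene in each library. Tcf15 had a listed 0 in TIC and 0.432 FPKM in NTC, and Tcf23 had 0.0142 FPKM in TIC and a listed 0 in NTC.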
